A study of Mus musculus with 4 samples.

Results

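The cytosolic ribosomal protein genes encode the proteins of the large (60S) and the small (40S) subunit of the ribosome that translates messenger RNA in the cytosol. They were chosen by symbol, as every gene whose symbol starts with Rpl or Rps followed by a digit, together with Rplp0, Rplp1, Rplp2 and Rpsa, without pseudogenes marked -ps and without the ribosomal S6 kinases. This rule took 86 of the 32285 listed genes, 52 named for the 60S and 34 for the 40S subunit. It also takes in Rps19bp1, whose name marks a protein that binds RPS19, and it leaves out Fau, whose ribosomal protein is made as a fusion with a ubiquitin-like protein. Whole kidneys of male C3H mice were measured by single-cell RNA-Seq, with 1 library for each of 4 conditions. WT mice and Sweet Pee (SP) mice, whose Slc5a2 gene for the glucose cotransporter SGLT2 has a missense mutation, received a normal diet (ND) or a high-fat diet (HFD) with 60% of its calories from fat. Feeding began at 10 weeks of age and lasted 8 weeks, so that mice were 18 weeks old at harvest. Values are given in a fixed order throughout, first the WT libraries (WT-ND, then WT-HFD) and then the SP libraries (SP-ND, then SP-HFD).

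Most ribosomal proteins are needed in equal numbers for each new ribosome, and the messenger RNAs of ribosomal proteins are among the most abundant in a cell. Most of these messenger RNAs begin with a C followed by a run of pyrimidines, the 5′ terminal oligopyrimidine (TOP) motif, through which mTORC1 signaling controls how much of them is translated. Several members have a paralog that arose by gene duplication or by retroposition of the messenger RNA, and some of these copies are expressed in few tissues. In the kidney, lymphocytes and macrophages lie among tubule cells that spend much of their transcript pool on transporters and mitochondrial enzymes.

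Annotated starts of some of the members named below are shown first, as examples of the TOP motif and of how much the Rps27 copies share. Sequences are from RefSeq on GRCm38.p6 and run from 10 bases before the annotated start to 20 bases from it, 5′ to 3′ on the gene's strand. Capitals mark a run of at least 5 pyrimidines counted from a C within 5 bases of the annotated start. The base before that C was not checked. A marked run can therefore lie within a longer stretch of pyrimidines, as in Rps24, Rpl35 and Rpl38.
Rps27, chr3:90213629-90213658, minus strand: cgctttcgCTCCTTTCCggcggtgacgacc
Rps27rt, chr9:114982720-114982749, minus strand: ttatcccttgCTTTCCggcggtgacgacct
Rps27l, chr9:66946076-66946105, plus strand: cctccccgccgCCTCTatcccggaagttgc
Rps24, chr14:24490668-24490697, plus strand: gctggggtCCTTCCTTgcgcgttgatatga
Rpl35, chr2:39005112-39005141, minus strand: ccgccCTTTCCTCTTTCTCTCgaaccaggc
Rpl38, chr11:114668570-114668599, plus strand: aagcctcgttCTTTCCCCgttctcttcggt
Rps27 and its retroposed copy Rps27rt share a run of 19 letters just after the annotated start, and Rps27 and Rps27l share no run longer than 4. Such a run was found at an annotated start of 30 of the 66 members with a sequence in the table (45.5%), on the gene's own strand only, against 5718 of all 27025 genes of the table (21.2%). Of the 13 other translation genes of TOP type with a sequence, 5 had one. All starts shown carry a run, but Rps28, Rpl9, Rps3a1, Rps4x and Rpl41, which are also named below, had none. Rps24 and Rps27l each have another annotated start without a run, which is not shown. The runs are a match of letters within a window, and a member without a run here may start at another base than the annotated one.

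Each library held 13229 to 16385 barcodes and 90728590 to 115117649 UMIs (unique molecular identifiers, which count RNA molecules by their 3′ ends). The 32280 cells kept had 200 to 5000 detected genes and under 50% mitochondrial UMIs and passed a doublet score. For levels, each of the 28326 kept cells with at least 1000 UMIs (7920, 8392, 5682 and 6332 per library) was thinned at random to 1000 UMIs, so that every cell had the same depth and weight. Levels are given as the share of UMIs in percent, or per gene as CPM, the gene's UMIs scaled to the same total in every library. Intervals are 95% intervals (Clopper-Pearson for shares, and exact binomial given the sum of both counts for log2 ratios). They cover counting error only, UMIs of 1 cell are not independent of each other. Each condition has a single library, so the spread between replicates is unknown and no test was run. Differences between mice or preparations cannot be told apart from those between diets or genotypes. Cell classes were named from marker genes, with the members left out of the clustering, and are written as "like" a class. Clusters without a clear class stayed unnamed and are not among the classes compared. In the integrated clustering they held 2096, 2176, 722 and 631 of the kept cells. Slc5a2 in proximal tubule-like cells measured 293, 231, 40.7 and 83.0 CPM, lower in both SP libraries than in both WT libraries. The 14 proximal tubule markers made up 0.202%, 0.0876%, 0.0816% and 0.0618% of UMIs in podocyte-, endothelial-, T or NK- and macrophage-like cells together, and the part of free RNA in the values below was not tested. Between libraries, 379 barcodes were found more than once, and whether the all-cell ratios moved without them is stated with the other alternatives.

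The libraries were not evenly mixed over clusters. When the libraries were clustered without integration, 2834 of the 2892 cells of a single cluster came from WT-HFD. The cluster carried markers of several tubule segments and of other cell types. The summed level was 5988 CPM for proximal tubule and 3067 CPM for thick ascending limb markers. It was 1651 CPM for plasma cell, 413 CPM for podocyte and 391 CPM for endothelial markers. Whether mixed cells or free RNA had a part in this was not tested. Members made up 5.30% of the UMIs of the WT-HFD cells in that cluster (7.45% of non-mitochondrial UMIs). The share of UMIs over all cells and the members' medians are therefore also given without it. Other clusters of that clustering were uneven as well. A proximal tubule-like cluster held 2037, 23, 936 and 14 cells, and another held 22, 860, 5 and 483. Proximal tubule-like cells of the ND and the HFD libraries thus clustered mostly apart. A cluster of low depth (median 805 UMIs) held 1708, 349, 323 and 384 cells.

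Among the 11 cell classes with at least 50 cells in every library, the members' share of UMIs was highest in T or NK-like cells in all 4 libraries and lowest in segments of the tubule. T or NK-like cells carried 25.9%, 25.2%, 25.9% and 29.6% of their UMIs on the 86 genes (124 to 220 cells per library). Macrophage or dendritic-like cells came next with 19.0%, 18.2%, 20.2% and 20.8%. Endothelial-like cells, which line the vessels, had 10.8%, 11.6%, 10.3% and 11.5%. These leukocyte classes lay above the other classes compared in each library, with no overlap of ranges. Neutrophil-like and plasma cell-like cells had under 50 cells in at least 1 library and were not compared.

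**Figure D1:**
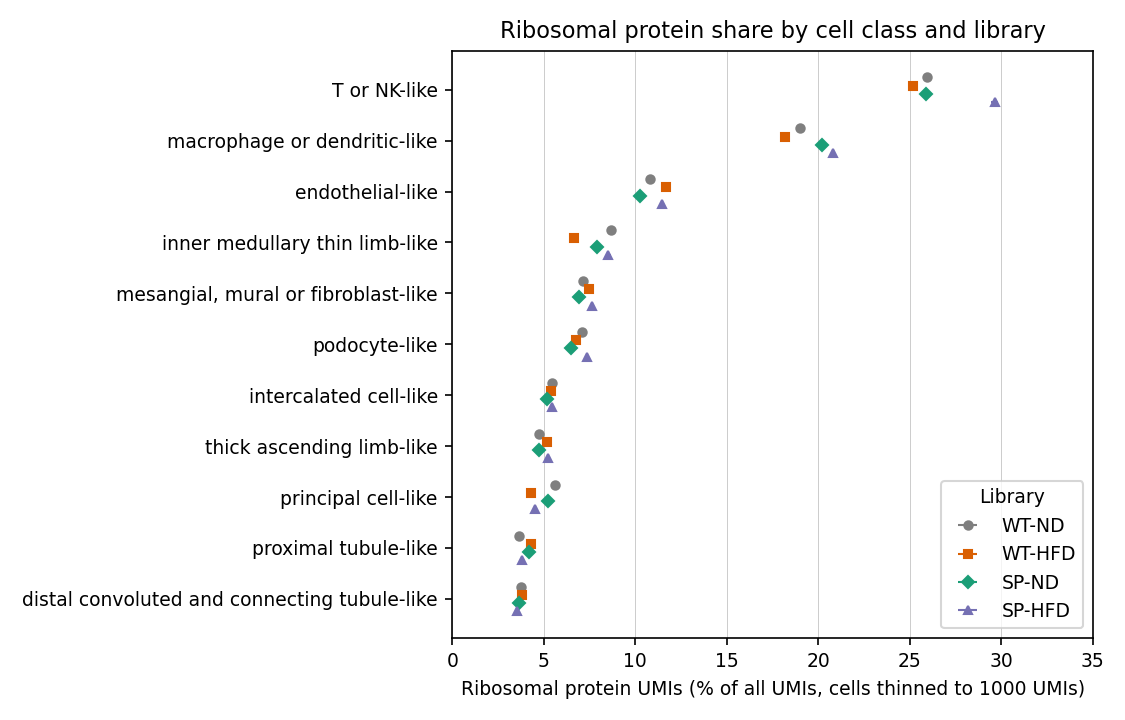
Share of UMIs on the 86 cytosolic ribosomal protein genes (percent, each cell thinned to 1000 UMIs) in the 11 cell classes with at least 50 cells in every library, with 1 point per library and 95% counting intervals. T or NK-like cells lie between 25.2% and 29.6% in all libraries, and distal convoluted and connecting tubule-like cells between 3.51% and 3.81%.

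Of the remaining 8 classes, inner medullary thin limb-like cells measured 8.69%, 6.65%, 7.93% and 8.52%, and podocyte-like cells, the filter cells of the glomerulus, 7.09%, 6.75%, 6.51% and 7.35%. Mesangial, mural or fibroblast-like cells lay between 6.90% and 7.60%. The 2 classes with the lowest mean share were proximal tubule-like cells (3.61%, 4.32%, 4.19% and 3.82%), which reabsorb most of the filtrate, and distal convoluted and connecting tubule-like cells (3.74%, 3.81%, 3.66% and 3.51%). In WT-ND the proximal tubule was the lower of these neighbours, and in the other 3 libraries the distal tubule was. Intercalated cell-like (5.18% to 5.47%), thick ascending limb-like (4.72% to 5.20%) and principal cell-like cells (4.30% to 5.63%) had means between, and their ranges overlapped. The place of principal cell-like cells depended on the clustering: those with that class in both clusterings (69 to 121 cells per library) held 9.14%, 6.24%, 8.88% and 7.27%, above all of these tubule classes. Mitochondrial UMIs moved with this order: they made up 8.37% to 11.9% of the UMIs of T or NK-like cells and 29.7% to 37.0% of those of proximal tubule-like cells. On non-mitochondrial UMIs alone, the shares were 29.4%, 27.5%, 29.2% and 32.4% in T or NK-like cells and 5.44%, 6.15%, 6.66% and 5.61% in proximal tubule-like cells.

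The same order held gene by gene for most members. Of the 83 members with a mean of at least 10 CPM over the libraries, 76 had their highest mean CPM in T or NK-like cells and 4 in macrophage or dendritic-like cells, and 53 had their lowest in distal convoluted and connecting tubule-like and 26 in proximal tubule-like cells. The median member differed 7.58-fold between its highest and its lowest class. The range was widest for Rpl12, a protein of the 60S stalk base, at a mean of 5420 CPM in T or NK-like and 320 CPM in distal convoluted and connecting tubule-like cells (16.9-fold). Rps24, a 40S protein, measured 8802, 8940, 9347 and 10841 CPM in T or NK-like cells and 537, 678, 673 and 635 CPM in proximal tubule-like cells. The narrowest range was that of Rps19bp1 (1.92-fold), which is not a structural protein of the ribosome. It was highest in inner medullary thin limb-like cells, and Rpl7l1 was highest in endothelial-like cells.

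Rps27l, a paralog of Rps27 that is known as a target of p53, ran against the order of the classes. It measured 139, 113, 105 and 100 CPM in T or NK-like cells and 411, 455, 410 and 403 CPM in proximal tubule-like cells, so that all 4 proximal tubule values lay above all 4 T or NK values. Its parent Rps27 measured 6546, 4273, 5411 and 5505 CPM in T or NK-like cells and 381, 350, 376 and 288 CPM in proximal tubule-like cells. Rps27l was the one tested member with its highest mean CPM in proximal tubule-like cells and the one with its lowest in T or NK-like cells.

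The ratio of Rps27l to Rps27 within the same cells does not depend on the total of UMIs. In T or NK-like cells it was 0.0212 (0.0138 to 0.0313), 0.0265 (0.0154 to 0.0428), 0.0194 (0.0103 to 0.0334) and 0.0182 (0.0113 to 0.0276). In proximal tubule-like cells it was 1.08 (0.973 to 1.19), 1.30 (1.14 to 1.48), 1.09 (0.937 to 1.27) and 1.40 (1.14 to 1.72), so that the paralog was counted about as often as its parent or more often. Distal convoluted and connecting tubule-like cells followed with 0.747, 0.942, 0.746 and 0.876, and endothelial-like cells lay at 0.162 to 0.211. In proximal tubule-like cells the ratio was higher in each HFD library than in the ND library of its genotype, with overlapping intervals in both genotypes. In cells with that class in both clusterings, WT-ND (1.07, 0.969 to 1.19) and WT-HFD (1.47, 1.249 to 1.72) did not overlap, while the SP libraries (1.09 and 1.41) did. A higher ratio on HFD was not particular to this class. In the integrated clusters most other classes had it in both genotypes. T or NK-, podocyte- and inner medullary thin limb-like cells had it in WT only. Thick ascending limb-like cells measured 0.514, 0.590, 0.471 and 0.699, and their SP intervals (0.408 to 0.542 and 0.607 to 0.804) did not overlap.

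**Figure D2:**
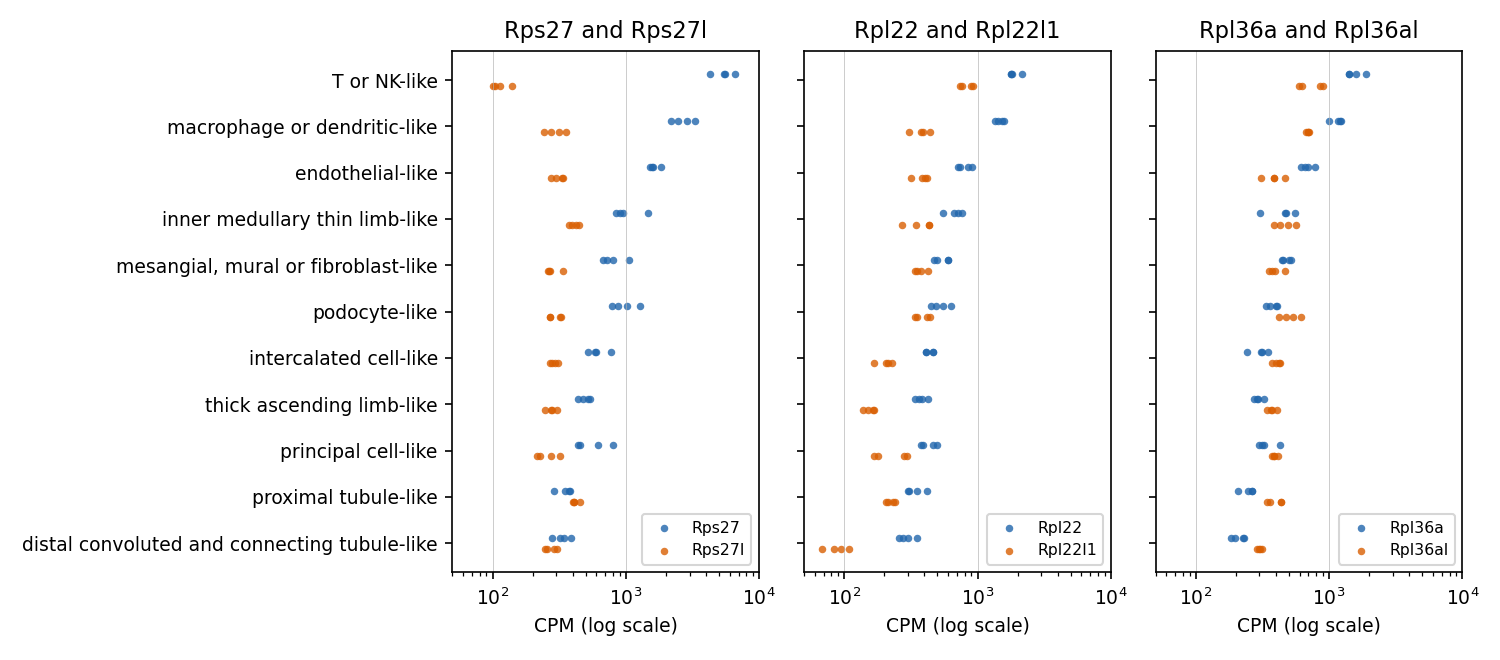
Levels of paralogs and of the members they derive from by cell class, in CPM on a log axis, with 1 point per library. Rps27l falls from 403 to 455 CPM in proximal tubule-like cells to 100 to 139 CPM in T or NK-like cells, while Rps27 lies between 4273 and 6546 CPM in T or NK-like cells.

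As a share of all member UMIs, Rps27l ranged from 0.0429% in T or NK-like cells to 1.05% in proximal tubule-like cells, 4.62 on the log2 scale, where the median member ranged over 0.67. The 8 members with the widest range also held Rpl7l1, a relative of Rpl7, with 0.0108% in T or NK-like and 0.0955% in proximal tubule-like cells. Rpl36al went from 0.279% to 0.987% and Rps2, a protein of the 40S decoding region, from 0.297% to 0.990%, in both cases lowest in T or NK-like and highest in proximal tubule-like cells. Rpl7a (0.383% to 1.14%) was likewise lowest in T or NK-like cells and was highest in distal convoluted and connecting tubule-like cells. Rps19bp1 (0.0132% to 0.0850%) was highest in principal cell-like cells. All of these named members had the low end of their range in T or NK-like cells, the class with the highest member share. All member UMIs are the divisor of this measure, so a member that rises less than the others in that class is low there by arithmetic.

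Rpl22l1, a paralog of Rpl22, differed from the other copies in its low end. It made up 0.194% of member UMIs in macrophage or dendritic-like cells and 0.561% in podocyte-like cells. For each UMI of Rpl22, macrophage or dendritic-like cells held 0.217, 0.289, 0.246 and 0.280 UMIs of Rpl22l1, and podocyte-like cells 0.623, 0.728, 0.939 and 0.686. For Rpl36al against Rpl36a the ratio was 0.336, 0.637, 0.420 and 0.537 in T or NK-like cells and 1.38, 1.76, 1.30 and 2.09 in proximal tubule-like cells, with no overlap between the classes for either pair. Rpl36a and Rpl36al agree at 279 of 318 coding bases, so reads from alike stretches may be divided between them.

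The other copies were rare or could not be separated. Rps27 and Rps27rt agree at all 252 coding bases, and reads within that stretch cannot be assigned to one of them. Rps27rt was measured at 27.4, 47.4, 31.5 and 47.7 CPM, and Rps27 at 1013, 762, 934 and 1040 CPM over all kept cells, with no common direction. Rpl3l, the muscle form of Rpl3, had 63, 93, 43 and 62 UMIs in all kept cells at full depth, and Rpl39l, a testis form of Rpl39, had 1, 1, 1 and 2. Rpl10l, a testis form of Rpl10, had 0 UMIs in 43530160 to 61984793 UMIs per library, which allows a level of up to 0.0484 to 0.0689 CPM. These 3 members fell under the limit of 10 CPM and enter no count below. Rps4x, the X-linked form of Rps4, was the only Rps4 gene among the members, with 640, 754, 753 and 1049 CPM over all kept cells.

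By subunit, the 52 members of the 60S held more UMIs than the 34 of the 40S in every class, but by a different margin. Over all kept cells the ratio of 60S to 40S UMIs was 1.31, 1.33, 1.30 and 1.28. It was lowest in T or NK-like cells (1.10, 1.16, 1.14 and 1.13) and macrophage or dendritic-like cells, and it reached 1.48, 1.55, 1.53 and 1.60 in principal cell-like cells and 1.47, 1.48, 1.44 and 1.54 in proximal tubule-like cells. The leukocyte and the tubule values did not overlap. Because UMIs count messenger RNA by 3′ ends and messages differ in how well they are captured, these ratios are not ratios of subunits.

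The stalk of the 60S subunit, which recruits elongation factors, is built on Rplp0 from Rplp1 and Rplp2. Rplp1 was measured at 1371, 1363, 1477 and 1593 CPM over all kept cells, Rplp2 at 889, 742, 906 and 874 CPM, and Rplp0 at 662, 770, 765 and 879 CPM. Rplp2 was lowest in WT-HFD, and Rplp0 and Rplp1 were highest in SP-HFD. Rpsa, a 40S protein also known as a laminin receptor, was measured at 745, 804, 887 and 1021 CPM and was highest in SP-HFD.

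Over all kept cells, the members' share of UMIs was 6.57% (6.55 to 6.58), 6.74% (6.73 to 6.76), 7.09% (7.07 to 7.12) and 8.35% (8.33 to 8.37), lowest in WT-ND and highest in SP-HFD. The 4 intervals did not overlap. On the log2 scale the ratio was 0.04 (0.03 to 0.04) for WT-HFD against WT-ND, 0.24 (0.23 to 0.24) for SP-HFD against SP-ND, 0.11 (0.11 to 0.12) for SP-ND against WT-ND and 0.31 (0.30 to 0.31) for SP-HFD against WT-HFD. These comparisons share libraries. The share of the median cell was also lowest in WT-ND, at 4.90%, with 5.30% in WT-HFD and 5.20% in SP-ND, and was highest in SP-HFD.

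The shares depended on which cells were counted and with what weight. Equal weight for the 11 classes also left out the unnamed cells (812, 1951, 434 and 348 of at least 1000 UMIs) and the neutrophil-like and plasma cell-like cells. The part of the weights and that of the cells left out were not tested. When each of the 11 classes was given the same weight, the shares were 9.25%, 8.99%, 9.16% and 9.81%, and the ratio turned to -0.04 for WT-HFD against WT-ND and to -0.02 for SP-ND against WT-ND. SP-HFD was still the highest. Without the cluster that was nearly all WT-HFD, the shares were 6.57%, 7.47%, 7.09% and 8.37%, and the log2 ratio was 0.18 for WT-HFD against WT-ND and 0.16 for SP-HFD against WT-HFD. The share of non-mitochondrial UMIs was 8.73%, 8.91%, 9.49% and 10.6%.

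Single members moved little. Of the 83 members with a mean of at least 10 CPM, 2 were past 1.5-fold for WT-HFD against WT-ND (Rps27rt higher, Rpl35 lower), 1 for SP-HFD against SP-ND (Rps27rt higher), and 0 in either comparison of genotypes. Over all 8610 genes with that level, 6.75%, 6.46%, 7.42% and 14.3% were past 1.5-fold in the same 4 comparisons, so the members' shares lay below those of all genes. These genes were not matched to the members in level, and counting error moves genes of few UMIs more. Rpl35 was no longer past the limit without the cluster that was nearly all WT-HFD, without thinning or with cells thinned to 2000 UMIs, where 0 members were lower.

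At the smaller limit of 0.32 on the log2 scale, 7 members were higher and 8 lower in WT-HFD than in WT-ND, where 9.84% of all genes were higher and 20.0% lower. For SP-HFD against SP-ND, 25 members were higher and 0 lower, with 14.6% of all genes higher and 9.31% lower. Between genotypes on ND, 4 members were higher in SP-ND and 0 lower (16.3% and 8.48% of all genes). On HFD, 38 were higher in SP-HFD and 0 lower, where 34.3% of all genes were higher and 7.79% lower. The members' median log2 ratio was 0.15, 0.27, 0.15 and 0.31 in these comparisons, beside -0.07, 0.04, 0.08 and 0.21 over all genes, and 57, 73, 68 and 80 of the 83 lay above 0, beside 3488, 4849, 5545 and 6478 of all 8610. Without the cluster that was nearly all WT-HFD, the members' median was 0.28 for WT-HFD against WT-ND and 0.16 for SP-HFD against WT-HFD.

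**Figure D3:**
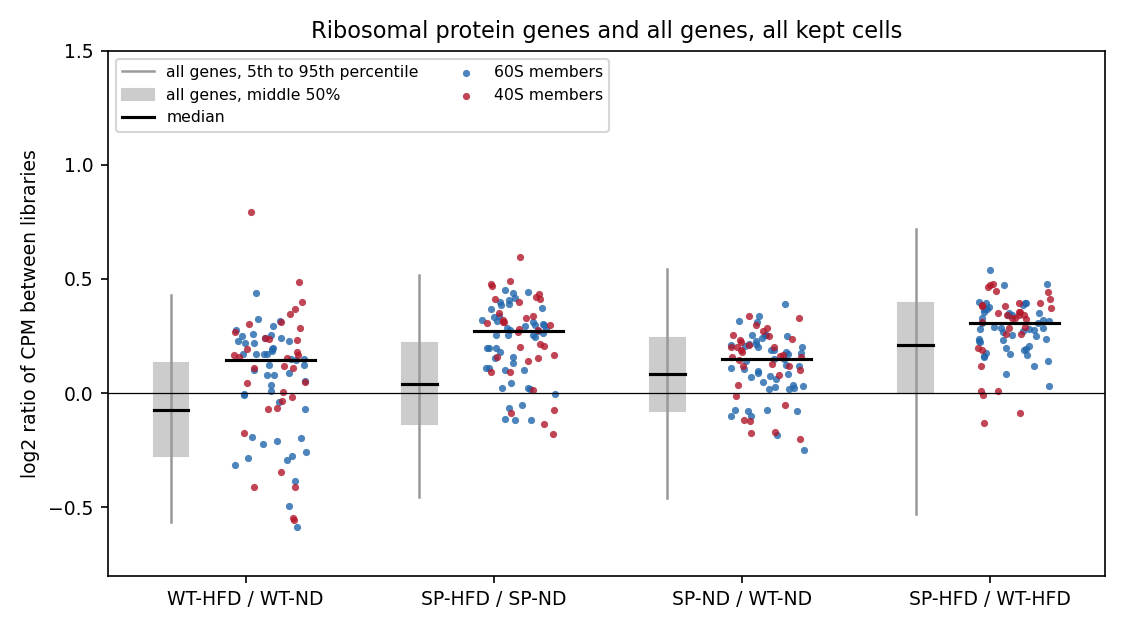
Log2 ratio of CPM over all kept cells in the 4 comparisons, for the 83 members with a mean of at least 10 CPM (points, 60S in blue and 40S in red), beside all genes at that level (box, middle 50%, and line, 5th to 95th percentile), with medians as black bars. Most members lie within a narrow band above 0, and the lowest point for WT-HFD against WT-ND is Rpl35 at -0.59.

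The 10 most abundant members, among them Rps29, Rps24, Rpl13, Rpl23 and Rplp1, held 20.9%, 20.7%, 20.9% and 21.0% of all member UMIs. Their levels did not move together. Rps29, a short zinc-binding protein of the 40S subunit, was measured at 2153, 1466, 1912 and 1818 CPM, highest in WT-ND and lowest in WT-HFD (log2 ratio -0.55 between them). Rps24 was measured at 1434, 1558, 1598 and 2161 CPM and Rpl13 at 1330, 1589, 1681 and 2092 CPM, both lowest in WT-ND and highest in SP-HFD. Rps24 lay 0.44 higher in SP-HFD than in SP-ND on the log2 scale (0.12 between the WT libraries).

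The members with the lowest ratios for WT-HFD against WT-ND were Rpl35, Rps28, Rps29, Rpl38 and Rps21. Rpl35, a 60S protein near the exit of the peptide tunnel, was measured at 505, 336, 531 and 488 CPM, a log2 ratio of -0.59, and WT-HFD lay below the other 3 libraries. Rps28 was measured at 1010, 690, 878 and 826 CPM and Rpl38, whose loss in mice alters the axial skeleton, at 1034, 734, 870 and 884 CPM. Both were highest in WT-ND and lowest in WT-HFD. Rps21 was measured at 1231, 924, 1132 and 1208 CPM.

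The highest ratios for WT-HFD against WT-ND were those of Rps27rt (0.79), Rps2 (0.49), Rpl9 (0.44), Rps3a1 (0.40) and Rps18 (0.37). Rps2 was measured at 316, 443, 399 and 440 CPM and Rpl9 at 745, 1008, 977 and 1329 CPM. Both were lowest in WT-ND. Rps2, Rps18 and Rps27rt, which were higher in WT-HFD than in WT-ND, were also among the 5 lowest of SP-HFD against WT-HFD, at -0.01, 0.01 and 0.01, and the 2 comparisons share WT-HFD.

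For SP-HFD against SP-ND the highest ratios were those of Rps27rt (0.60), Rps3a1 (0.49), Rps4x (0.48), Rps7 (0.47) and Rpl29 (0.45), and among the lowest were those of Rps15 (-0.18), Rpl35 (-0.12), Rpl23a (-0.12) and Rpl41 (-0.11). Rps15 was measured at 879, 691, 982 and 867 CPM. Rpl41, which encodes the shortest ribosomal protein, was measured at 1453, 1114, 1278 and 1182 CPM and was higher in both ND libraries than in both HFD libraries. For SP-ND against WT-ND, Rpl9 (0.39), Rpl13 (0.34), Rps2 (0.34) and Rpl10 (0.32) were among the highest and Rpl38 (-0.25), Rps28 (-0.20), Rpl41 (-0.19), Rps27l (-0.18) and Rps29 (-0.17) lowest. For SP-HFD against WT-HFD, Rpl35 (0.54), Rps4x (0.48), Rpl12 (0.48), Rpl29 (0.47) and Rps24 (0.47) were highest and Rps27l (-0.13) and Rps19bp1 (-0.09) lowest.

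The members that were lower in WT-HFD were mostly those with short coding sequences, from Rpl41 with 138 coding bases to Rpl4 with 1257 over all members. This was seen after the ratios were known and is a description. The coding length of a gene is that of its longest annotated coding sequence, which can exceed that of the form expressed here. Members under 450 coding bases (40 members) had a median log2 ratio of -0.02 for WT-HFD against WT-ND, with 19 above and 21 below 0, and those of 450 bases or more (43 members) had a median of 0.22, with 38 above 0. For SP-ND against WT-ND the medians were 0.04 and 0.21, and all 43 longer members lay above 0. For SP-HFD against SP-ND they were 0.16 and 0.31, and for SP-HFD against WT-HFD 0.26 and 0.35. Among the other genes the order was the reverse for WT-HFD against WT-ND, with 0.17 for the 654 genes with shorter and -0.10 for the 7752 with longer coding sequences. It was also the reverse for SP-HFD against SP-ND (0.16 and 0.02), while the medians were 0.09 and 0.08 for SP-ND against WT-ND and 0.10 and 0.22 for SP-HFD against WT-HFD.

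**Figure D4:**
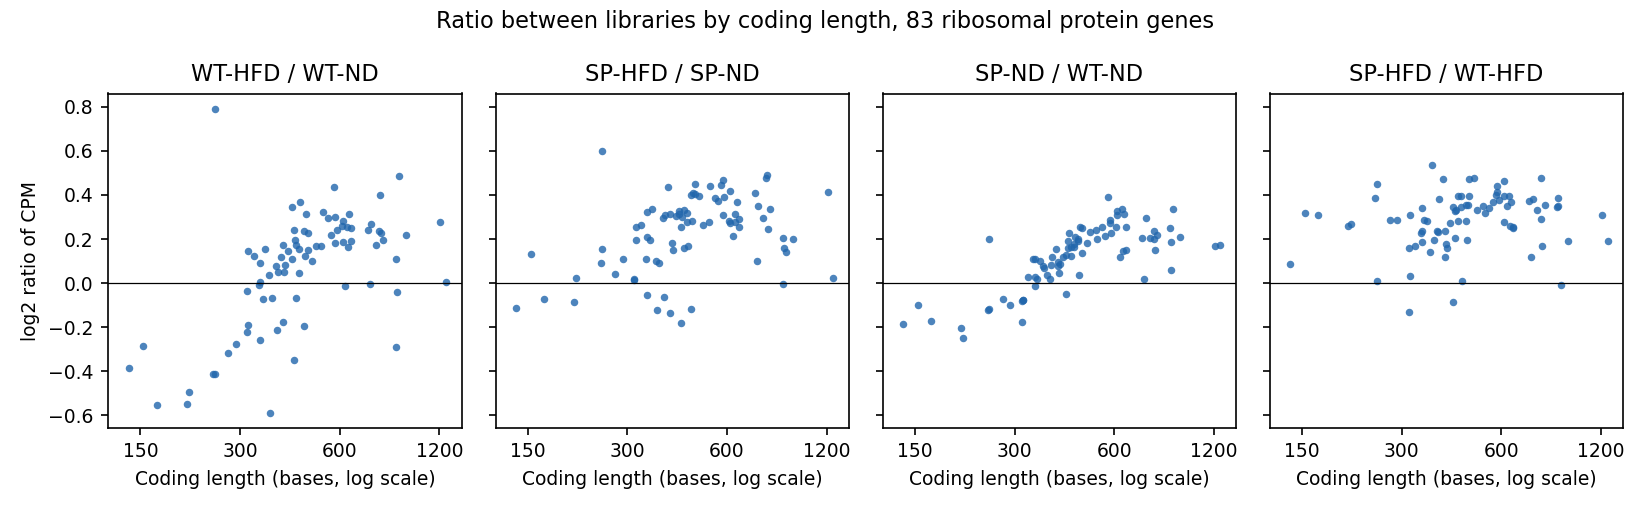
Log2 ratio of CPM over all kept cells against coding length in bases (log axis) for the 83 members, in the 4 comparisons. Pearson's r across members is 0.56 for WT-HFD against WT-ND, 0.38 for SP-HFD against SP-ND, 0.74 for SP-ND against WT-ND and 0.19 for SP-HFD against WT-HFD.

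Across the 83 members, Pearson's r between log2 ratio and log2 coding length was 0.56 for WT-HFD against WT-ND (Spearman's rho 0.59), 0.38 for SP-HFD against SP-ND (0.40), 0.74 for SP-ND against WT-ND (0.74) and 0.19 for SP-HFD against WT-HFD (0.27). The points share libraries, cells and depth, and genes are not replicates. WT-ND is in the first and the third of these ratios. The median of the longer members was above that of the shorter members for WT-HFD against WT-ND within 10 of the 11 classes, for example 0.17 and -0.14 in T or NK-like and 0.49 and 0.15 in proximal tubule-like cells, and the order was the reverse in principal cell-like cells (-0.43 and -0.35). Without the cluster that was nearly all WT-HFD the medians were 0.35 and 0.09. RNA quality or capture in each library was not measured, and its part in this pattern was not tested.

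Within single classes, the members' share moved with diet in different directions. In proximal tubule-like cells, the class in which Slc5a2 is expressed, the share was 3.61% in WT-ND and 4.32% in WT-HFD, a log2 ratio of 0.26 (0.24 to 0.27), and 4.19% in SP-ND and 3.82% in SP-HFD, a ratio of -0.14 (-0.16 to -0.11). Past 0.32 on the log2 scale, 48 members were higher and 5 lower in WT-HFD than in WT-ND, beside 29.2% and 26.3% of the 6502 genes tested in this class. In SP-HFD against SP-ND, 3 members were higher and 19 lower, beside 29.2% and 26.5% of genes. As a share of the members, both counts lay below those of all genes. The members' medians were 0.38 and -0.11, and the median of all genes was 0.02 in both.

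Mitochondrial UMIs in proximal tubule-like cells made up 33.5%, 29.7%, 37.0% and 32.0%, lower in each HFD library than in its ND library, and the median depth of these cells was 9254, 8708, 15035 and 13672.5 UMIs before thinning. On non-mitochondrial UMIs the ratios were 0.18 and -0.25, with the same signs. In cells given the same class in both clusterings they were 0.22 and -0.12. Among such cells of 16000 UMIs or more before thinning, the WT order was the reverse, with 4.31% in WT-ND (343 cells) and 3.89% in WT-HFD (403 cells), or 6.18% and 5.85% of non-mitochondrial UMIs. In the 3 lower depth ranges from 2000 UMIs, WT-HFD was the higher (5.57% and 4.18%, 4.41% and 3.05%, and 3.90% and 3.49%), and SP-HFD was below SP-ND in all 4 ranges. The 2 diet ratios come from different libraries, and whether they differ could not be tested.

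Principal cells take up sodium and water in the collecting duct, and the cells named as like them had lower shares on HFD in both genotypes. The share was 5.63% in WT-ND and 4.30% in WT-HFD, a log2 ratio of -0.39 (-0.42 to -0.36), and 5.23% in SP-ND and 4.54% in SP-HFD, a ratio of -0.21 (-0.23 to -0.18). Past 0.32 on the log2 scale, 2 members were higher and 47 lower in WT-HFD than in WT-ND, beside 25.5% and 36.3% of the 7845 genes tested. In SP-HFD against SP-ND, 1 was higher and 28 lower, beside 26.8% and 33.9%. As a share of the members, the 28 lower were near the 33.9% of all genes. Both clusters of the class moved in the same direction. In the larger one, led by Kcne1, Hsd11b2 and Scnn1g, the shares were 5.00%, 3.63%, 4.51% and 3.73%. In the smaller one, led by Aqp4 and Aqp2 (69 to 117 cells), they were 9.14%, 6.26%, 8.88% and 7.34%, and only this one kept its name in both clusterings. Kcne1, Npy6r, Grem1 and Scnn1g, leading genes of the larger one, also led a cluster in the clustering without integration. That cluster, led by Calb1 and Trpv5 as well, was named distal convoluted and connecting tubule-like. Most cells of the class thus had a name that depended on the clustering.

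T or NK-like cells had their highest share in SP-HFD, with a log2 ratio of 0.19 (0.18 to 0.21) against SP-ND and of -0.04 (-0.06 to -0.02) between the WT libraries. The ranges of single cells overlapped widely: the middle 50% of cells ran from 16.8% to 36.1% in WT-ND and from 21.9% to 35.5% in SP-HFD. The median depth of these cells was 1805, 3082, 2592 and 2734.5 UMIs before thinning, and among cells of 2000 to 4000 UMIs the shares were 30.7%, 24.3%, 28.7% and 31.6%. At that depth WT-HFD was the lowest, and WT-ND lay within 1 percentage point of SP-HFD. Inner medullary thin limb-like cells had a ratio of -0.39 for WT-HFD against WT-ND, which was -0.14 in cells with the same class in both clusterings. Thick ascending limb-like and endothelial-like cells had higher shares on HFD in both genotypes, by 0.14 and 0.13 and by 0.11 and 0.16 on the log2 scale. In distal convoluted and connecting tubule-like, intercalated cell-like and macrophage or dendritic-like cells, the diet ratios lay between -0.06 and 0.07 in the integrated clusters. In cells with the same class in both clusterings the WT ratios were -0.13, -0.16 and 0.06.

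Other genes of translation were taken from lists. The 20 other genes of TOP type, among them Eef1a1 and Eef2 (elongation factors), Tpt1 and Fau, held 0.981%, 1.05%, 1.10% and 1.23% of UMIs, in the same order of libraries as the members. Their median log2 ratios were 0.10, 0.18, 0.14 and 0.23, and past 1.5-fold 0 were higher and 1 lower for WT-HFD against WT-ND, 0 in either direction for SP-HFD against SP-ND and for SP-ND against WT-ND, and 1 higher and 0 lower for SP-HFD against WT-HFD. Tpt1 was measured at 2903, 3334, 3276 and 3622 CPM, above every member, Eef1a1 at 1678, 1750, 1959 and 2140 CPM and Fau at 1529, 1555, 1683 and 1956 CPM. In cells with the same class in both clusterings, the list held 3.02%, 3.36%, 3.41% and 3.70% of UMIs in T or NK-like cells and 0.504% to 0.525% in distal convoluted and connecting tubule-like cells, the members' order at both ends.

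The 78 mitochondrial ribosomal protein genes (76 tested), which encode the ribosome inside mitochondria, did not follow that order. They held 0.473%, 0.539%, 0.502% and 0.530% of UMIs, with medians of 0.19, 0.10, 0.09 and -0.01 in the 4 comparisons. In cells with the same class in both clusterings they held 0.345% to 0.408% in T or NK-like cells and 0.534% to 0.663% in thick ascending limb-like cells. They were low in T or NK-like cells, where the members were high, but the order was not the reverse in every class. Inner medullary thin limb-like cells held 0.552% to 0.659%, with 7.91% to 8.69% on members. In WT-ND, proximal tubule-like cells held 0.425% and endothelial-like cells 0.469%. Past 1.5-fold, 1 was lower for WT-HFD against WT-ND and 1 higher for SP-ND against WT-ND, and 0 were past it in the other comparisons. Mrps6, which had 120, 176, 172 and 201 CPM, was lowest in WT-ND, while Mrps21 (176, 184, 174 and 154 CPM) was lowest in SP-HFD and Mrpl33 lay between 161 and 182 CPM.

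Genes that make ribosomes or set the rate of initiation had medians nearer to 0 than the members in all 4 comparisons. The 25 tested of 31 ribosome biogenesis genes had medians of -0.06, 0.15, 0.00 and 0.19 in the 4 comparisons, with 1 past 1.5-fold, higher for WT-HFD against WT-ND. Polr1d, a subunit shared by RNA polymerases I and III, was measured at 102, 124, 114 and 150 CPM, Sbds at 68.7, 74.7, 68.6 and 97.6 CPM and Nop10 at 188, 210, 188 and 211 CPM. The 25 translation initiation factors had medians of -0.11, 0.09, 0.04 and 0.24, with 1 past 1.5-fold, lower for WT-HFD against WT-ND. Eif1 was measured at 743, 891, 788 and 1051 CPM, Eif4g2 at 341, 297, 355 and 336 CPM and Eif5 at 223, 195, 230 and 248 CPM. The 12 tested of 16 mTORC1 and growth regulators had medians of -0.04, 0.16, 0.03 and 0.17, with 1 higher past 1.5-fold in each comparison of diets. Atf4, a transcription factor of the stress response, was measured at 73.6, 106, 78.0 and 110 CPM, higher in both HFD libraries, while Rheb lay between 105 and 156 CPM and Larp4 at no more than 86.9 CPM.

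The members' share fell with the mitochondrial share of a barcode in every library. Among barcodes with under 10% mitochondrial UMIs it was 11.6%, 12.3%, 12.3% and 12.9%, among those of 40% to 50%, the last range kept, 2.89%, 3.25%, 3.35% and 3.15%, and among those of 80% or more 0.598%, 0.405%, 0.440% and 0.391%. On non-mitochondrial UMIs alone it was 12.4% to 13.6%, 5.24% to 6.08% and 3.27% to 4.32% in the same ranges. The barcodes excluded for 50% or more mitochondrial UMIs, which were 32.7%, 33.2%, 49.8% and 42.1% of all barcodes, held 1.19%, 1.17%, 1.12% and 0.990% of their UMIs on members. Cell classes differ between these ranges, so the fall is not a measure within one kind of cell.

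**Figure D5:**
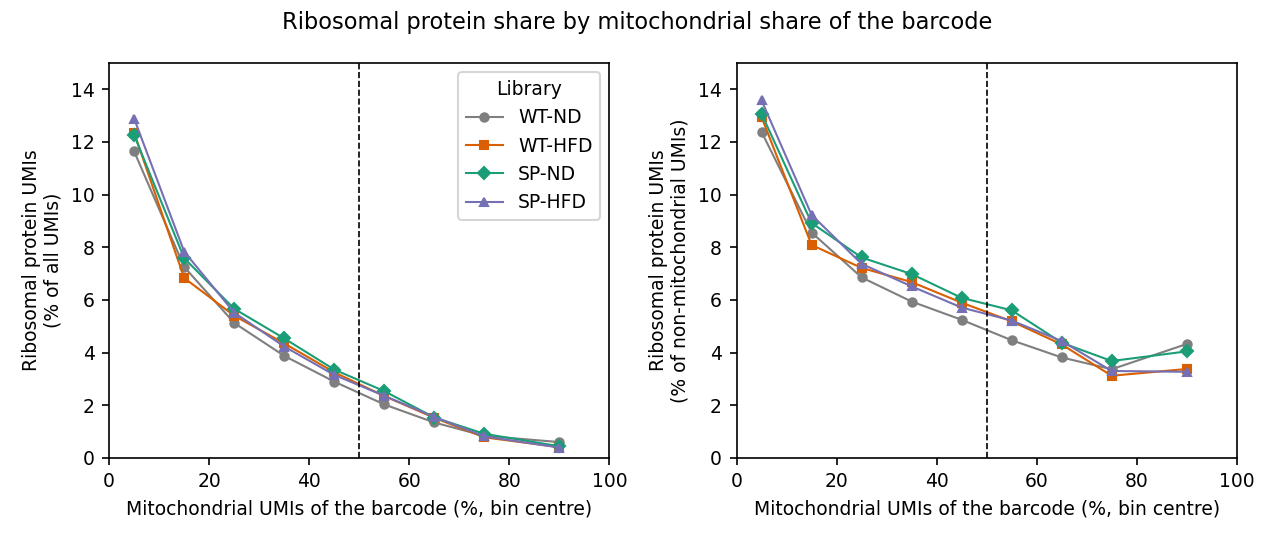
Share of UMIs on the 86 members among barcodes grouped by their mitochondrial percentage, per library, over all UMIs (left) and over non-mitochondrial UMIs (right), with the 50% limit for kept cells as a dashed line. Over all UMIs the share falls from between 11.6% and 12.9% to between 0.391% and 0.598% from the lowest to the highest group.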

How the data were processed

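Whole kidneys were dissociated and 1 library of 3′ single-cell RNA-Seq was made for each of the 4 conditions. The authors deposited 1 matrix per library of counts of UMIs per gene and barcode, not normalized. The smallest barcode of each matrix had 500 UMIs. The matrix headers give Cell Ranger 6.1.2, while the submitters' processing notes give Cell Ranger 2.1.1 and the build mm10.

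Barcodes were kept if they had 200 to 5000 genes with a UMI and a mitochondrial share under 50%. Of the barcodes of a library that passed these limits, a score from simulated doublets marked 0.8% for every 1000 of them, and those marked were left out. Cells were clustered in Seurat 5.3.0 (R 4.3.3) with CCA integration of 2000 variable genes over 50 dimensions at resolution 0.5, without the members among those genes, and again without integration. Clusters were named from marker lists. Each cell was then thinned once to 1000 UMIs. Genes with a mean of at least 10 CPM were compared by their ratio, and 1.5-fold was the limit of size, with 0.32 on the log2 scale as an alternative. Levels and intervals were computed with scipy 1.17.1 and pandas 2.3.3 (Python 3.11.15), and the doublet score with scikit-learn 1.9.0. On independent Poisson counts simulated for 7473 genes, 95.5% of intervals held the true ratio. The intervals assume such counts, and the simulation did not group UMIs within cells or mice. It therefore checks the computation and not how well the intervals cover these data.

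The members, gene lists and marker lists were chosen with earlier results of these data known. The members named are the 10 of highest mean CPM, the 5 highest and 5 lowest ratios of each comparison, the 8 with the widest range of their share of member UMIs over classes, paralogs with their parents, and the stalk proteins with Rpsa. From each other list the 3 genes of highest mean CPM are named. A few genes that these rules name are not reported here. The cells with the same class in both clusterings, the values without the WT-HFD cluster and the split by coding length were added after the data were seen. Clusters led by the cycling list, or with weak or mixed markers, were left without a name. An integrated cluster with 558 of its 563 cells from WT-HFD was among them. Coding lengths and coding sequences of copies were taken from the GENCODE M21 basic annotation and transcripts.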

Additional observations from a re-analysis of the deposited data

Results flagged for a closer look

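The diet ratio of the members' share had opposite signs in the 2 genotypes, with both counting intervals clear of 0, in 7 of the 11 cell classes. On the log2 scale, HFD against ND was 0.26 in WT and -0.14 in SP in proximal tubule-like cells, -0.39 and 0.10 in inner medullary thin limb-like cells, and -0.042 and 0.19 in T or NK-like cells. It was -0.070 and 0.18 in podocyte-like cells, -0.063 and 0.044 in macrophage or dendritic-like cells, -0.028 and 0.072 in intercalated cell-like cells, and 0.026 and -0.058 in distal convoluted and connecting tubule-like cells. Over all kept cells, 4 of the 47 members named by the rules also had opposite signs. The ratios were -0.41 in WT and 0.094 in SP for Rps21, -0.41 and 0.16 for Rps27, -0.28 and 0.13 for Rpl39, and -0.19 and 0.20 for Rpl36a. Part of the named members were picked by their ratios in these same comparisons. The share of all genes with opposite signs is not given here, so the count is not a trait of the members. Not all of the opposite signs remained under other settings. In cells with the same class in both clusterings both ratios were of 1 sign in macrophage or dendritic-like cells (0.058 and 0.050) and in distal convoluted and connecting tubule-like cells (-0.13 and -0.058). On non-mitochondrial UMIs they were of 1 sign in intercalated cell-like cells (-0.014 and -0.027) and in podocyte-like cells (0.0059 and 0.12), and without thinning in T or NK-like (0.059 and 0.18) and macrophage or dendritic-like cells (0.073 and 0.11). With 1 library per condition, none of these differences was tested.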

How the results depend on the processing

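Ratios are log2 ratios of the members' share for WT-HFD against WT-ND, SP-HFD against SP-ND, SP-ND against WT-ND and SP-HFD against WT-HFD, in this order throughout, and whole sets are given where at least 1 ratio of a class moved by more than its counting interval. The cause of these moves was not tested. Over all cells, the sign changed for WT-HFD against WT-ND with under 30% mitochondrial UMIs and with equal weight for each class, and for SP-ND against WT-ND with equal weight.

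With UMIs pooled without thinning, the ratios over all cells were 0.13, 0.28, 0.073 and 0.22. In single classes, they were 0.059, 0.18, 0.033 and 0.15 in T or NK-like cells, -0.023, 0.022, -0.062 and -0.018 in distal convoluted and connecting tubule-like cells, and 0.072, 0.16, -0.085 and 0.0019 in endothelial-like cells. They measured -0.42, 0.12, -0.084 and 0.46 in inner medullary thin limb-like cells, -0.10, 0.19, -0.16 and 0.13 in intercalated cell-like cells, and 0.073, 0.11, 0.067 and 0.10 in macrophage or dendritic-like cells. Further ratios were 0.011, 0.100, -0.070 and 0.018 in mesangial, mural or fibroblast-like cells, -0.0024, 0.23, -0.21 and 0.030 in podocyte-like cells, and -0.30, -0.11, -0.068 and 0.12 in principal cell-like cells. By class, values were 0.10, -0.11, 0.18 and -0.036 in proximal tubule-like cells, and 0.11, 0.26, -0.085 and 0.064 in thick ascending limb-like cells.

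With cells thinned to 2000 UMIs, the ratios over all cells were 0.16, 0.27, 0.20 and 0.31. Within classes, ratios were -0.14, 0.11, -0.019 and 0.23 in T or NK-like cells, 0.027, -0.0045, -0.056 and -0.088 in distal convoluted and connecting tubule-like cells, and 0.090, 0.14, -0.078 and -0.027 in endothelial-like cells. They measured -0.40, 0.14, -0.13 and 0.40 in inner medullary thin limb-like cells, -0.079, 0.12, -0.11 and 0.082 in intercalated cell-like cells, and -0.076, 0.084, 0.00059 and 0.16 in macrophage or dendritic-like cells. Further ratios were 0.060, 0.11, -0.059 and -0.0066 in mesangial, mural or fibroblast-like cells, -0.099, 0.24, -0.20 and 0.14 in podocyte-like cells, and -0.46, -0.21, -0.11 and 0.13 in principal cell-like cells. In single classes, they were 0.13, 0.23, -0.044 and 0.053 in thick ascending limb-like cells.

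On non-mitochondrial UMIs, the ratios over all cells were 0.030, 0.16, 0.12 and 0.25. By class, values were -0.098, 0.15, -0.012 and 0.24 in T or NK-like cells, 0.046, -0.0031, -0.035 and -0.084 in distal convoluted and connecting tubule-like cells, and 0.082, 0.14, -0.061 and -0.0027 in endothelial-like cells. They measured -0.24, 0.076, -0.070 and 0.24 in inner medullary thin limb-like cells, -0.014, -0.027, -0.025 and -0.038 in intercalated cell-like cells, and -0.058, 0.034, 0.076 and 0.17 in macrophage or dendritic-like cells. Further ratios were 0.038, 0.082, -0.013 and 0.031 in mesangial, mural or fibroblast-like cells, 0.0059, 0.12, -0.082 and 0.036 in podocyte-like cells, and -0.36, -0.20, -0.082 and 0.077 in principal cell-like cells. Within classes, ratios were 0.18, -0.25, 0.29 and -0.13 in proximal tubule-like cells, and 0.11, 0.082, 0.040 and 0.017 in thick ascending limb-like cells.

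With cells of under 30% mitochondrial UMIs, the ratios over all cells were -0.055, 0.15, 0.14 and 0.34. In single classes, they were -0.044, 0.17, -0.013 and 0.20 in T or NK-like cells, 0.073, 0.010, 0.018 and -0.045 in distal convoluted and connecting tubule-like cells, and -0.31, 0.13, -0.096 and 0.35 in inner medullary thin limb-like cells. They measured -0.035, 0.014, -0.0094 and 0.039 in intercalated cell-like cells, -0.034, 0.051, 0.071 and 0.16 in macrophage or dendritic-like cells, and 0.057, 0.065, 0.0051 and 0.013 in mesangial, mural or fibroblast-like cells. Further ratios were -0.0086, 0.12, -0.058 and 0.067 in podocyte-like cells, -0.34, -0.15, -0.048 and 0.14 in principal cell-like cells, and 0.12, -0.19, 0.21 and -0.10 in proximal tubule-like cells. By class, values were 0.11, 0.017, 0.10 and 0.0097 in thick ascending limb-like cells.

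With classes from the clustering without integration, the ratios were -0.29, -0.15, -0.064 and 0.070 in distal convoluted and connecting tubule-like cells, 0.076, 0.16, -0.049 and 0.035 in endothelial-like cells, and -0.17, 0.081, -0.16 and 0.095 in inner medullary thin limb-like cells. They measured -0.16, 0.081, -0.093 and 0.14 in intercalated cell-like cells, 0.081, 0.034, 0.068 and 0.021 in macrophage or dendritic-like cells, and -0.12, 0.17, -0.12 and 0.17 in podocyte-like cells. Further ratios were -0.59, -0.29, -0.084 and 0.22 in principal cell-like cells, and 0.22, -0.13, 0.22 and -0.13 in proximal tubule-like cells.

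In cells with the same class in both clusterings, the ratios were -0.13, -0.058, -0.032 and 0.043 in distal convoluted and connecting tubule-like cells, -0.14, 0.10, -0.13 and 0.11 in inner medullary thin limb-like cells, and -0.16, 0.084, -0.095 and 0.15 in intercalated cell-like cells. They measured 0.058, 0.050, 0.058 and 0.050 in macrophage or dendritic-like cells, 0.10, 0.16, -0.040 and 0.016 in mesangial, mural or fibroblast-like cells, and -0.043, 0.18, -0.12 and 0.095 in podocyte-like cells. Further ratios were -0.55, -0.29, -0.043 and 0.22 in principal cell-like cells, and 0.22, -0.12, 0.22 and -0.12 in proximal tubule-like cells.

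With doublets kept, the ratios over all cells were 0.052, 0.24, 0.12 and 0.31.

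With equal weight for each compared class, which leaves out the cells of no compared class, the ratios were -0.042, 0.100, -0.015 and 0.13.

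Without the cluster that was nearly all WT-HFD, the ratios over all cells were 0.18, 0.24, 0.11 and 0.16.

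Members past 1.5-fold numbered 2, 1, 0 and 0 of 83 in the 4 comparisons, beside 6.75%, 6.46%, 7.42% and 14.3% of all 8610 genes. In the counts that follow, brackets give all genes past the same limit, as higher, lower and tested. For WT-HFD against WT-ND, members numbered 1 without thinning (254, 232 and 8356) and 1 at 2000 UMIs (288, 322 and 8573). They numbered 4 with under 30% mitochondrial UMIs (201, 632 and 9081) and 15 past 0.32 on the log2 scale (847, 1721 and 8610). For SP-HFD against SP-ND, members numbered 0 on non-mitochondrial UMIs (277, 410 and 9540) and 0 with under 30% mitochondrial UMIs (294, 352 and 9081). They numbered 25 past 0.32 on the log2 scale (1254, 802 and 8610) and 2 with no filter on low values (3493, 2802 and 19350). For SP-ND against WT-ND they numbered 4 past 0.32 on the log2 scale (1403, 730 and 8610) and 1 with no filter (3342, 2961 and 19470). For SP-HFD against WT-HFD they numbered 1 at 2000 UMIs (608, 406 and 8573) and 38 past 0.32 on the log2 scale (2950, 671 and 8610). With no filter the number was 1 (4482, 3016 and 19523). Leaving out barcodes found in more than 1 library moved none of the 4 ratios over all cells beyond their intervals.

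No paired analysis was possible because each condition has 1 library. Depth limits the rare members and the classes of few cells, and intervals do not cover differences between mice. Counts of near-identical copies are uncertain.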

Other observations

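The leukocytes were not alike in how much of their transcript pool the members held. Neutrophil-like cells, short-lived phagocytes of the blood, had 4.27%, 3.62%, 3.19% and 4.06% of UMIs on members in 34, 37, 53 and 51 cells, beside at least 18.2% in T or NK-like and macrophage or dendritic-like cells. Plasma cell-like cells, which secrete antibody, were separated from B cell-like cells in the clustering without integration. They had 8.26% in WT-HFD and 8.11% in SP-HFD, in 63 and 107 cells, and the ND libraries held 34 and 1 such cells. B cell-like cells there had 22.4%, 9.01%, 23.8% and 24.9% in 43, 279, 36 and 61 cells, lowest in WT-HFD. Mitochondrial UMIs made up 21.1% in those WT-HFD cells and 13.4% to 14.5% in the others, and their part was not tested. Classes with under 50 cells in a library are given as values only.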
